A study of Mus musculus with 8 samples.

Results

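The elastic fibre and fibulin genes Eln, Fbn1, Fbn2, Fbln1, Fbln2, Fbln5, Efemp1, Efemp2, Mfap4 and Mfap5 were chosen by symbol and made up 10 of the 19301 genes in the expression table. Each of the 10 symbols was found in it. mRNA was sequenced from primary tendon-derived stem cells (TSCs) of C57BL/6J mice, released from the patellar tendon with type I collagenase. The cells were cultured for 4 days in low glucose medium (LG, 5.5 mM glucose with DMSO) or in HFHG medium, which combined high glucose with 300 µM of the saturated fatty acid palmitic acid. There were 4 biological replicates in each group, and the comparison asked how gene expression of TSCs differed between the media. The age and sex of the donor mice were not given in the sources used here. Nothing tied a replicate to a separate animal, so p-values measure the spread between these samples, which may be technical.

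Elastic fibres let connective tissue recoil after stretch. Their core is elastin, the cross-linked product of Eln, and their outer scaffold is a bundle of microfibrils made of fibrillins (Fbn1, Fbn2) with associated glycoproteins (Mfap4, Mfap5). Fibulins (Fbln1, Fbln2, Fbln5, Efemp1, Efemp2) are secreted proteins with calcium-binding EGF repeats that connect elastin, microfibrils and basement membranes, and in tendon elastic fibres lie between the collagen fascicles and around the cells.

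TSCs expressed the 5 fibulin genes and the microfibril genes Fbn1 and Mfap5 well above 1 FPKM, Mfap4 below 1 FPKM, and Fbn2 and Eln at a trace. Expression was measured as FPKM, the reads on a gene scaled by its length and by a read total of the library, which allows levels of different genes to be compared. In each of the 8 libraries, 7 of the 10 genes were above 1 FPKM, and together the 10 genes took 0.738% to 0.765% of the reads. Fbln2 was the most abundant of them and alone made up 38.7% to 40.1% of their summed FPKM in HFHG and 44.3% to 45.2% in LG. The read totals behind the FPKM, recovered from the FPKM, were 34308108 to 37362725 per library. Of these totals, 99.82% to 99.85% lay on genes of the table, so all sequenced or mapped reads may be more. LG replicate 4 stood apart from the other LG libraries on the second principal component (13.8 against -7.93 to -1.82), which held 4.18% of the variance. On the first component, with 81.0% of the variance, it lay near the other LG libraries (28.1 against 26.65 to 27.6). Results that rest on LG replicate 4 are given with and without it.

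A gene entered the test between the media if it had at least 0.5 FPKM in at least 4 of the 8 libraries, which 8 of the 10 genes and 11710 genes in all did. At an adjusted p below 0.05 by limma, 5 of these 8 genes were higher in HFHG, where 34.0% of all tested genes were higher. Of the 8, 2 were lower in HFHG, where 30.8% of all tested genes were lower. Fbln1, Efemp1, Mfap4, Mfap5 and Fbln5 were the higher ones, and Fbln2 and Efemp2 were the lower ones, with the last 2 turning to higher under quantile normalization. The FPKM of the groups did not overlap in 7 of the 8 genes, and they did not overlap in 59.2% of all tested genes. Mfap4 passed the filter only through its HFHG libraries and so had to differ, and no weight rests on these counts. The threshold of the study's methods, a log2 fold change beyond 1 with an unadjusted p below 0.05, was applied to this limma fit. The test behind the study's own calls is not named in the sources used here, so these shares are not the study's own counts. Fbln1 was the 1 gene of the 8 past this threshold. It was higher in HFHG, as 3.68% of the tested genes were, whereas 1.65% were lower. Fold changes are on the log2(FPKM + 0.1) scale, HFHG minus LG, which understates changes at low FPKM. Mfap4, at 0.90 on this scale, fell short of the study's threshold. Its log2 fold change was 1.06 with a pseudocount of 0.01 and 1.065 by voom on recovered reads, so its place at that threshold rests on the scale.

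**Figure D1:**
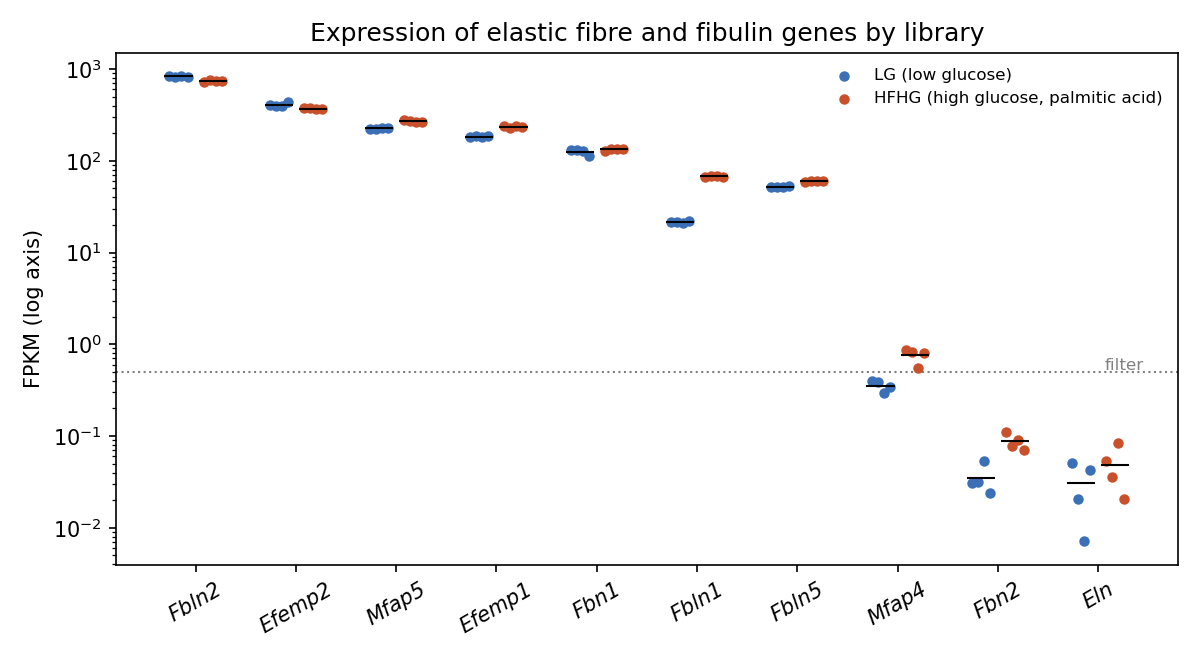
FPKM of the 10 genes on a log axis, with 1 point per library, LG in blue and HFHG in orange, and a black bar at the mean of each group of 4; the dotted line is the filter at 0.5 FPKM. Fbln1 shows the widest gap between the media among the abundant genes (21.6 against 67.6 FPKM), and Fbn2 and Eln lie far below the filter.

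The order of the levels was nearly the same in both media. In LG, mean FPKM fell from Fbln2 (829) through Efemp2 (409.6), Mfap5 (226), Efemp1 (184), Fbn1 (126), Fbln5 (52.3) and Fbln1 (21.6) to Mfap4 (0.355), Fbn2 (0.0349) and Eln (0.0304). In HFHG the mean FPKM ran from Fbln2 (741) through Efemp2 (368), Mfap5 (272), Efemp1 (235), Fbn1 (133), Fbln1 (67.6) and Fbln5 (59.9) to Mfap4 (0.759), Fbn2 (0.0875) and Eln (0.0485). Fbln1 and Fbln5 thus changed places between the media. Neighbours in either order had ranges that did not overlap, except Fbn2 and Eln, whose levels overlapped in both media. This order was described and not tested.

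Eln encodes tropoelastin, the monomer of elastin, and lies on chromosome 5 of GRCm38 from 134702593 to 134747323 (NCBI gene 13717). Its expression was 0.0539, 0.0356, 0.0839 and 0.0207 FPKM in HFHG replicates 1 to 4 and 0.0513, 0.0208, 0.00710 and 0.0424 FPKM in LG replicates 1 to 4. The ranges of the media overlapped, and every library was far below the filter. These values stood for 8, 5, 12 and 3 reads in HFHG and 7, 3, 1 and 6 reads in LG. Summed over libraries, 28 reads in HFHG against 17 in LG gave a rate 1.61 times that of LG, with an exact 95% interval of 0.849 to 3.13 that covers counting error only. The log2 difference was 0.18 (exact two-sided permutation p = 0.343 over 70 arrangements, n = 4 each), and it was 0.02 with a pseudocount of 1 and 0.58 with 0.01. It moved to 0.07 without HFHG replicate 3, 0.09 without LG replicate 3 and 0.28 without HFHG replicate 4. A difference in Eln was not detected at this depth of 1 to 12 reads per library. In bulk samples, fewer cells of a type and less RNA per cell cannot be told apart.

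Fbn1 encodes the main fibrillin of microfibrils and lies on chromosome 2 from 125300594 to 125507993 (NCBI gene 14118). Its expression was 128, 135, 133.5 and 136 FPKM in HFHG replicates 1 to 4 and 130.5, 131, 128 and 113 FPKM in LG replicates 1 to 4. HFHG replicates 2 to 4 were above every LG library, HFHG replicate 1 was just below LG replicates 1 to 3, and LG replicate 4 was the lowest of all 8, so the ranges overlapped. The means were 133 ± 3.56 in HFHG and 126 ± 8.46 FPKM in LG (SD, n = 4 each). The log2 fold change of Fbn1 was 0.09 (95% interval -0.01 to 0.18, adjusted p = 0.0968 by limma). Without LG replicate 4 it was 0.04 (limma, adjusted p = 0.217), and with median-ratio scaling it was 0.05 (adjusted p = 0.326). Fbn1 did pass the threshold when FPKM were rescaled to the same sum (0.15, adjusted p = 0.0194), under quantile normalization (0.14, adjusted p = 0.0285) and in a voom fit to recovered reads (0.09, adjusted p = 0.0152). Over all alternatives the adjusted p ran from 0.00793 to 0.326.

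Fbn2 encodes a fibrillin best known from developing tissue and lies on chromosome 18 from 58008623 to 58210487 (NCBI gene 14119). Its expression was 0.112, 0.0780, 0.0898 and 0.0703 FPKM in HFHG replicates 1 to 4 and 0.0305, 0.0314, 0.0537 and 0.0241 FPKM in LG replicates 1 to 4. All HFHG libraries were above all LG libraries, yet all 8 were below the filter and Fbn1 was far more abundant in each of them. The reads were 44, 29, 34 and 27 in HFHG and 11, 12, 20 and 9 in LG, or 134 against 52 in sum. The rate in HFHG was 2.51 times that in LG (exact 95% interval 1.81 to 3.53, counting error only). The log2 difference was 0.47 (exact two-sided permutation p = 0.0286, the smallest that 4 against 4 libraries can give), and its size rests on the pseudocount, with 0.07 at a pseudocount of 1 and 1.14 at 0.01. With voom on all genes with at least 10 reads, an alternative chosen after seeing the data, the log2 fold change of Fbn2 was 1.34 (adjusted p = 0.00581), and without the filter it was 0.47 (adjusted p = 0.00796 by limma).

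Mfap5, which encodes a small glycoprotein of microfibrils, was the most abundant of the microfibril genes. It lies on chromosome 6 from 122505845 to 122529290 (NCBI gene 50530). Its expression was 279, 274, 268 and 266 FPKM in HFHG replicates 1 to 4 and 224, 223, 226 and 230.1 FPKM in LG replicates 1 to 4. Every HFHG library was above every LG library. The means were 272 ± 6.14 and 226 ± 3.02 FPKM (SD, n = 4 each). By limma, Mfap5 rose by 0.27 on the log2 scale with a standard error of 0.0229 (adjusted p = 4.48e-07), and by 0.43 under quantile normalization.

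Mfap4, a fibrinogen-domain protein that binds elastic fibres, is carried on chromosome 11 from 61485431 to 61488900 (NCBI gene 76293). Its expression was 0.870, 0.815, 0.545 and 0.806 FPKM in HFHG replicates 1 to 4 and 0.393, 0.389, 0.294 and 0.345 FPKM in LG replicates 1 to 4. The groups did not overlap, and only the HFHG libraries reached the filter. The reads were 53, 47, 32 and 48 in HFHG and 22, 23, 17 and 20 in LG. Because the filter let Mfap4 in through HFHG alone, its test is taken from the limma fit to all genes without the filter, which gave a log2 fold change of 0.90 (adjusted p = 0.00121). On summed reads the rate in HFHG was 2.14 times that in LG (exact 95% interval 1.64 to 2.81, counting error only). With a pseudocount of 1 the log2 fold change was 0.37. Exons of Mfap4 overlap those of Mapk7 on the opposite strand, a gene with 7.87 FPKM in HFHG and 9.56 FPKM in LG. The library kit keeps strand, but whether the counting used it was not given in the sources used here, so reads of this pair cannot be told apart with certainty. The same holds for Eln, Fbn1 and Fbn2, whose exons overlap those of Gm30003, Gm9913 and Gm26507 on the opposite strand, genes that are not in the table.

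**Figure D2:**
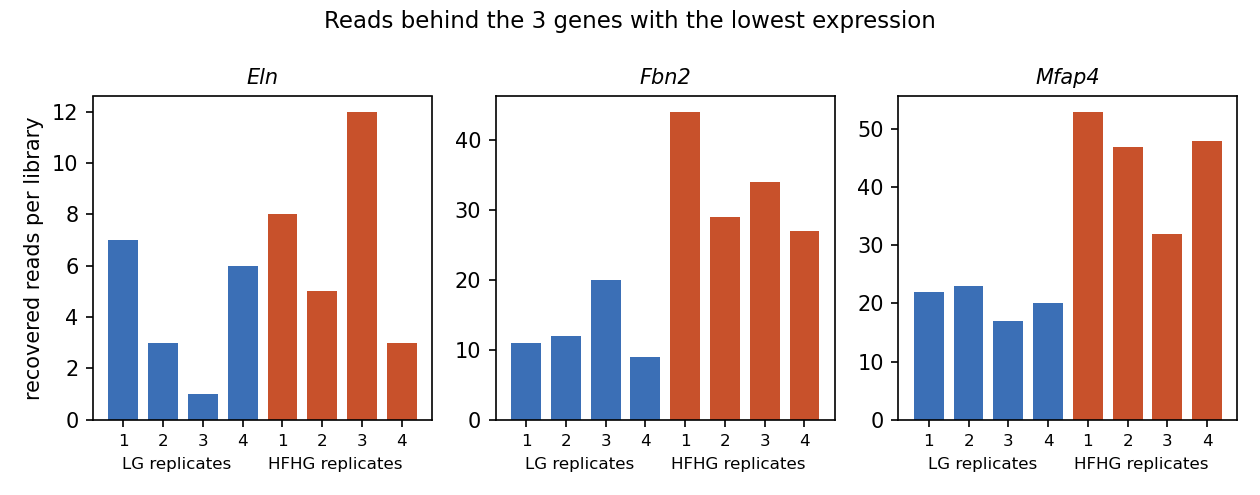
Reads recovered for Eln, Fbn2 and Mfap4 in each library, as bars from 0, LG in blue and HFHG in orange, with a separate vertical axis for each gene. Eln varied between 1 and 12 reads with overlapping groups, while Fbn2 (27 to 44 against 9 to 20) and Mfap4 (32 to 53 against 17 to 23) did not overlap.

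Among the linkers, Fbln1 showed the largest difference of the 8 tested genes. The Fbln1 protein binds elastin, fibronectin and basement membrane proteins, and its gene lies on chromosome 15 from 85205949 to 85286535 (NCBI gene 14114). Its expression was 67.0, 68.5, 68.1 and 66.8 FPKM in HFHG replicates 1 to 4 and 21.8, 21.3, 21.1 and 22.3 FPKM in LG replicates 1 to 4. All HFHG libraries were about 3 times as high as all LG libraries, with hardly any spread within a group. The means of 67.6 ± 0.810 and 21.6 ± 0.543 FPKM (SD, n = 4 each) differed 3.13-fold. By limma, Fbln1 rose by 1.64 on the log2 scale with a standard error of 0.0288 (adjusted p = 2.68e-13). Of the 11710 tested genes, 105 had a log2 fold change at least as high, Fbln1 included. Fbln1 has several splice forms, which were not analysed here.

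Fbln2 encodes a large fibulin that binds fibrillin and tropoelastin. It lies on chromosome 6 from 91212455 to 91272540 (NCBI gene 14115). Its expression was 720.1, 762.5, 741 and 742 FPKM in HFHG replicates 1 to 4 and 834, 828, 829 and 825 FPKM in LG replicates 1 to 4. All HFHG libraries were below all LG libraries. The means were 741 ± 17.3 and 829 ± 3.68 FPKM (SD, n = 4 each). By limma, the change of Fbln2 was -0.16 on the log2 scale with a standard error of 0.0210 (adjusted p = 2.18e-05), and its direction depended on the scaling, since it was 0.18 under quantile normalization (adjusted p = 1.29e-05). It stayed at -0.10 when the libraries were set to the same FPKM sum and at -0.20 with median-ratio scaling. Over all alternatives the adjusted p ran from 2.29e-13 to 0.000987.

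Fbln5 encodes a fibulin that binds elastin and cell surface integrins and is needed to assemble elastic fibres. It lies on chromosome 12 from 101746565 to 101819055 (NCBI gene 23876). Its expression was 59.4, 60.6, 60.1 and 59.5 FPKM in HFHG replicates 1 to 4 and 52.1, 51.7, 51.8 and 53.7 FPKM in LG replicates 1 to 4. The groups did not overlap, although the difference was small beside that of Fbln1. The means were 59.9 ± 0.571 and 52.3 ± 0.934 FPKM (SD, n = 4 each). By limma, Fbln5 rose by 0.19 on the log2 scale with a standard error of 0.0253 (adjusted p = 2.14e-05).

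Efemp1 and Efemp2 encode a pair of closely related short fibulins, of which Efemp2 is known to bring lysyl oxidase to tropoelastin. The levels of Efemp1 (chromosome 11, 28853204 to 28926743, NCBI gene 216616) were 236, 229, 240.5 and 234 FPKM in HFHG replicates 1 to 4 and 181, 186, 182 and 186 FPKM in LG replicates 1 to 4. Each HFHG library was above each LG library, with a rise of 0.36 on the log2 scale by limma and a standard error of 0.0230 (adjusted p = 3.01e-08). The levels of Efemp2 (chromosome 19, 5473954 to 5482517, NCBI gene 58859) were 371.5, 372, 367 and 364 FPKM in HFHG replicates 1 to 4 and 409.6, 399.9, 396 and 433 FPKM in LG replicates 1 to 4. Here each HFHG library was below each LG library, with LG replicate 4 the highest. By limma, the change of Efemp2 was -0.15 on the log2 scale with a standard error of 0.0275 (adjusted p = 0.000350), but it turned to 0.08 under quantile normalization (adjusted p = 0.00172) and was -0.09 with the libraries set to the same FPKM sum. Without LG replicate 4 it was -0.13 (adjusted p = 9.24e-05), with adjusted p from 1.45e-07 to 0.00203 over all alternatives. Exons of Efemp2 overlap those of Mus81 on the opposite strand, a gene with 5.44 FPKM in HFHG and 3.93 FPKM in LG.

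**Figure D3:**
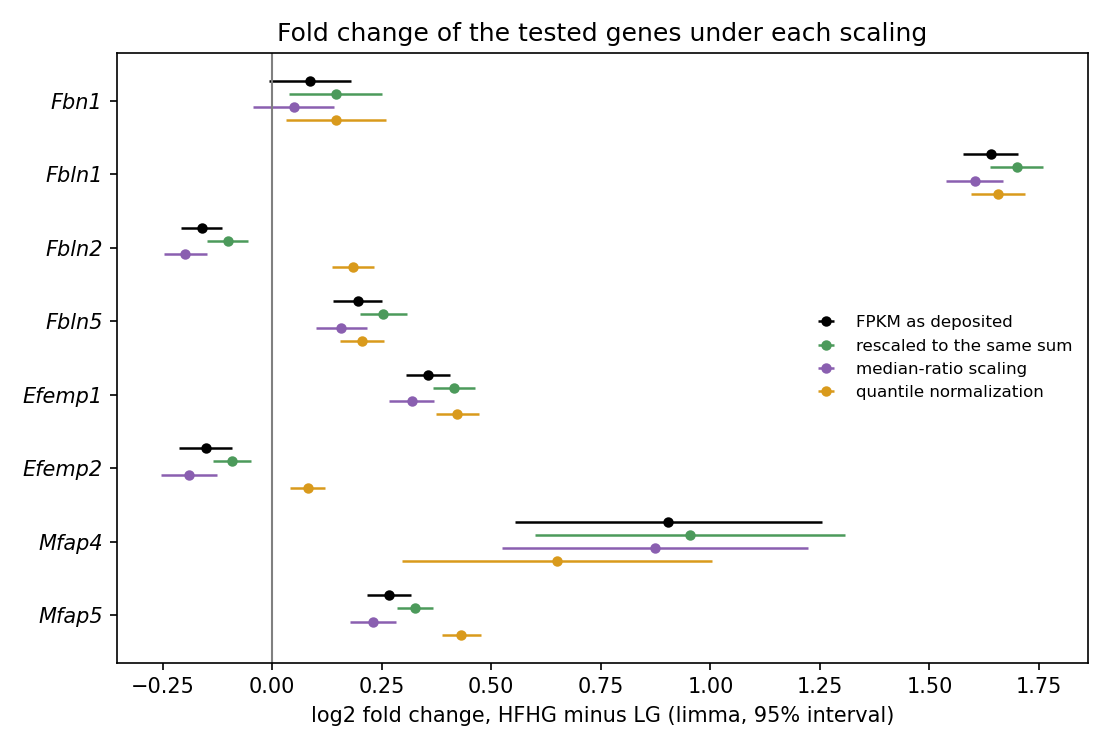
Log2 fold change of the 8 tested genes, HFHG minus LG, as points with 95% intervals from limma on FPKM as deposited (black), rescaled to the same sum (green), with median-ratio scaling (purple) and with quantile normalization (yellow). Fbln1 stays between 1.60 and 1.70, whereas Fbln2 and Efemp2 cross 0 under quantile normalization and Fbn1 has intervals on both sides of 0 in 2 of the 4 scalings.

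Fbln1, Fbln5 and Efemp1 were higher in HFHG and Efemp2 was lower in 3 of 4 scalings, and the sequence upstream of these 4 genes is shown so that genes that moved differently can be set side by side. RefSeq windows (GRCm38.p6) were found for 6 of the 10 genes, with 10 entries in all. They cover the 250 bases before an annotated start, and a stretch is printed only where it lies before every annotated exon. The stretches are chr15:85205699-85205948 on the plus strand for Fbln1, chr12:101819120-101819369 on the minus strand for Fbln5, chr11:28852955-28853203 on the plus strand for Efemp1 and chr19:5473696-5473945 on the plus strand for Efemp2. Each is given from 5′ to 3′ on the strand of the gene, and capitals mark any match to the 4 motifs described after them.
Fbln1: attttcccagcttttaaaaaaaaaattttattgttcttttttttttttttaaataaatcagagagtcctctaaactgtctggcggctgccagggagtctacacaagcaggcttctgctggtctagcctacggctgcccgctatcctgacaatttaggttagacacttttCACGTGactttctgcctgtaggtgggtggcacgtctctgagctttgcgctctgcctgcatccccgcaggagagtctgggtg
Fbln5: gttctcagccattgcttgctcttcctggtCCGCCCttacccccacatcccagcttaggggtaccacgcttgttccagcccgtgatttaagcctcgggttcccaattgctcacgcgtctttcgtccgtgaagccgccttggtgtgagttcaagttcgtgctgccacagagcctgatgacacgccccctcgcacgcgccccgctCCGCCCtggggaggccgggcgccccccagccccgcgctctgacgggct
Efemp1: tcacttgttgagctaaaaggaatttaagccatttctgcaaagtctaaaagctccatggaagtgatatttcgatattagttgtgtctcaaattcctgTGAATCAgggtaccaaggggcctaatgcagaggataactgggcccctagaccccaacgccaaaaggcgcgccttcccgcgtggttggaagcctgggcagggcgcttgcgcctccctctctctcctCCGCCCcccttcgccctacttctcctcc
Efemp2: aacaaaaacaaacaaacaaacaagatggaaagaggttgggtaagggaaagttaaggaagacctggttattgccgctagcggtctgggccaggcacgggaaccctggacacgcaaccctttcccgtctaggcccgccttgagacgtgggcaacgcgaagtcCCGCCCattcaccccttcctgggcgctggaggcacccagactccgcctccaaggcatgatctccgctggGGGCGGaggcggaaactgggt

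The motifs searched on both strands were the GC box GGGCGG, the TATA motif TATAAA, the palindromic E-box CACGTG and the AP-1 motif TGANTCA, in which N is any base. CACGTG was found once in the Fbln1 stretch, and 6.02% of all 32851 windows of 250 bases hold it. TGANTCA was found once in the Efemp1 stretch, against 6.75% of all windows. GGGCGG, held by 32.7% of all windows, occurred 2 times in the Fbln5 stretch, 2 times in the Efemp2 stretch and once in the Efemp1 stretch, and it was not in the Fbln1 stretch. TATAAA, held by 12.4% of all windows, was in none of these 4 stretches. The windows of further annotated starts of the same genes differed from these stretches. GGGCGG occurred once in the other window of Fbln1, 0 times in that of Fbln5 and 5 times in each of the other 2 of Efemp2. The share of G and C was 46.4% and 62.4% in the 2 windows of Fbln1 and 65.2% and 49.6% in those of Fbln5, against a median of 52.4% over all windows, so these genes cannot be ordered by either feature. A match describes the letters only, and no factor was measured at these sites.

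Log2 ratios of 2 abundant genes within a library hardly move when all values of that library are multiplied by 1 factor, but they do move under quantile normalization. Ratios that hold Fbn2, Eln or Mfap4 also depend on the pseudocount. On FPKM as deposited, 5 ratios were compared between the media by an exact two-sided permutation test with adjustment over the 5. The log2 ratio of Efemp2 to Efemp1 was 0.65, 0.70, 0.61 and 0.63 in HFHG replicates 1 to 4, against 1.18, 1.10, 1.12 and 1.22 in LG replicates 1 to 4. The excess of Efemp2 over Efemp1 was thus smaller in every HFHG library, with a difference of -0.51 (exact permutation p = 0.0286, adjusted p = 0.0357, n = 4 each) that was -0.34 under quantile normalization. The exact p stayed at 0.0286 there, the smallest possible. The adjusted p was 0.0857 over the 3 ratios of tested genes and 0.143 over all 5 with quantile normalization of all genes, each the least that 1 separated ratio can reach when no other passes. The log2 ratio of Fbln5 to Fbln2 was -3.60, -3.65, -3.62 and -3.64 in HFHG replicates 1 to 4, against -4.00, -4.00, -4.00 and -3.94 in LG replicates 1 to 4. Fbln2 exceeded Fbln5 by less in every HFHG library, with a difference of 0.36 (exact permutation p = 0.0286, adjusted p = 0.0357) that shrank to 0.02 under quantile normalization (adjusted p = 0.457). On FPKM as deposited, Efemp1 and Fbln5 were higher, and Efemp2 and Fbln2 lower, in every HFHG library than in any LG library. Both ratios therefore had to separate, and their p-values add nothing to those values. The 5 ratios were chosen with earlier results of these data known, and their quantile normalization was chosen after seeing the data.

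The remaining ratios involve genes with few reads. The mean log2 ratio of Mfap5 to Mfap4 was 8.32 ± 0.251 in HFHG and 8.96 ± 0.160 in LG (SD, n = 4 each), with a difference of -0.64 (exact permutation p = 0.0286, adjusted p = 0.0357) that was -0.22 under quantile normalization (adjusted p = 0.257). On FPKM as deposited the ratio was lower in every HFHG library than in any LG library. For Fbn2 to Fbn1 the means were -9.48 ± 0.176 and -9.87 ± 0.124, with a difference of 0.39 (exact permutation p = 0.0286, adjusted p = 0.0357) that was 0.20 under quantile normalization of all genes (adjusted p = 0.238). On FPKM as deposited Fbn2 thus made up more of the fibrillin mRNA in every HFHG library, still as a trace. For Eln to Fbn1 the means were -9.83 ± 0.280 and -9.92 ± 0.277, with a difference of 0.10 (exact permutation p = 0.600, adjusted p = 0.600) that turned to -0.07 under quantile normalization of all genes. With a pseudocount of 1, which exceeds the FPKM of Fbn2, Eln and Mfap4, the differences of Fbn2 to Fbn1 and of Eln to Fbn1 turned in sign. Those of Fbln5 to Fbln2 (0.35) and Efemp2 to Efemp1 (-0.51) hardly moved, and their adjusted p of 0.0714 is the least that 2 of 5 ratios can reach when the others do not pass. With a pseudocount of 0.01 these 2 differences were larger, at 1.05 for Fbn2 to Fbn1 (adjusted p = 0.0357) and 0.49 for Eln to Fbn1 (adjusted p = 0.371), so their size rests on the pseudocount.

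**Figure D4:**
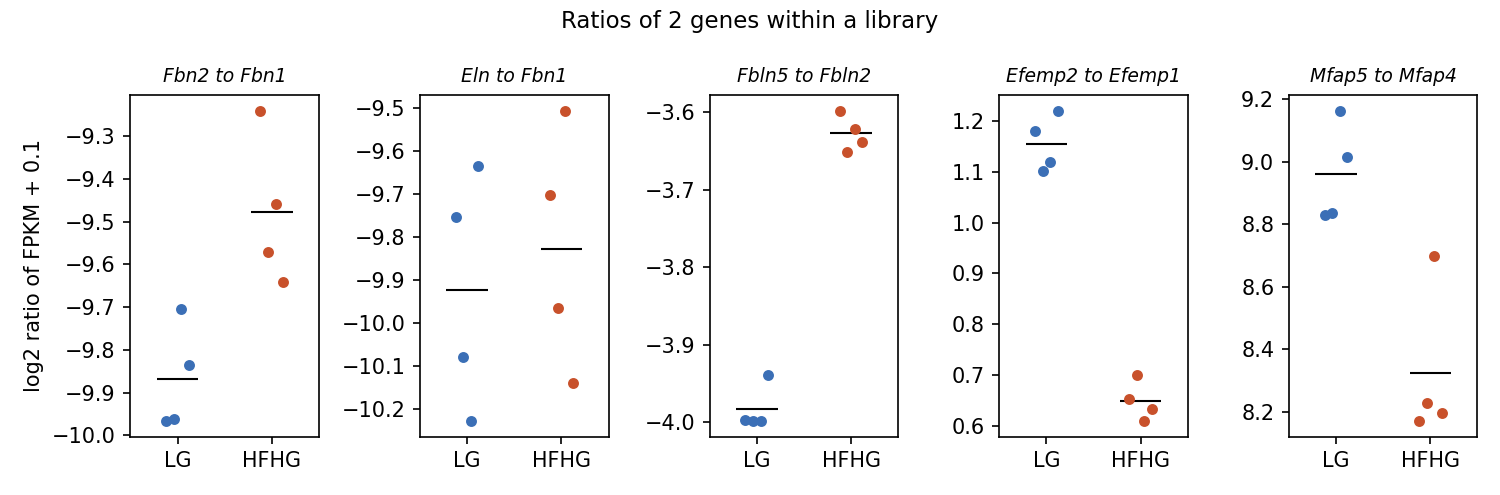
Log2 ratio of FPKM + 0.1 of 2 genes within a library, with 1 point per library and a black bar at the mean of each group of 4, LG in blue and HFHG in orange, on a separate vertical axis for each pair. On FPKM as deposited the groups are apart for 4 pairs and overlap for Eln to Fbn1, and Eln to Fbn1 turned in sign under quantile normalization.

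The deposited annotation was used to see what the genes share beyond their names. All 10 carried the term collagen-containing extracellular matrix, which 311 genes of the table carry. Calcium ion binding was listed for the 7 fibrillin and fibulin genes, among 599 genes. The term elastic fiber was listed for 5 genes of the table, and these were Eln, Fbln1, Fbln5, Efemp2 and Mfap4. Microfibril was listed for 13 genes, of which Fbn1, Fbn2, Efemp2, Mfap4 and Mfap5 were 5. In all, 24 genes held elastic fiber or microfibril somewhere in this annotation, 8 of them among the 10 genes. Of the 19 that were tested, 11 were higher in HFHG and 2 were lower, and the median of their log2 fold changes was 0.27. Of all tested genes, 34.0% were higher and 30.8% lower, with a median of 0.02. Mfap4 is among the 11 and had to be higher, so no weight rests on this count and median. The largest rises in this group were those of Ltbp1, Fbln1 and Ltbp2, and the 2 lower genes were Adamtsl5 and Efemp2, the latter turning to higher under quantile normalization.

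Proteins that bind, process or cross-link the elastic fibre formed a list of 25 partner genes. HFHG was higher for 13 and lower for 4 of the 20 that entered the test (34.0% and 30.8% of all tested genes), and the median of their log2 fold changes was 0.43. The largest rises were those of Hmcn1, which encodes a very large extracellular protein of the fibulin family (log2 fold change 2.59, and 1.03 with a pseudocount of 1), and of Ltbp1 (2.03) and Ltbp2 (1.48), whose products bind fibrillin microfibrils. Ltbp1 was at 10.8 ± 0.336 FPKM in HFHG and 2.58 ± 0.186 FPKM in LG, and Ltbp2 at 52.2 ± 0.906 and 18.6 ± 0.830 FPKM (SD, n = 4 each). Hmcn1 reached the filter only through HFHG, so it had to be higher and no weight rests on the count and median that include it (1.32 ± 0.0854 against 0.138 ± 0.0248 FPKM). The largest falls were those of Fbln7, a further fibulin (-0.83, with 0.800 FPKM in HFHG, 0.533 times the mean of LG, and -0.47 with a pseudocount of 1), of fibronectin Fn1 (-0.78, and -0.49 under quantile normalization, with 471 ± 17.6 and 809 ± 36.5 FPKM) and of Adamtsl5, whose product binds fibrillin (-0.77, with 19.1 ± 0.420 and 32.6 ± 0.889 FPKM). The elastin and collagen cross-linking enzyme Lox, chosen after its values were seen, was the most abundant gene of the list at 3060.0 to 3154 FPKM in HFHG and 1483 to 1586 FPKM in LG (log2 fold change 1.01, adjusted p = 2.09e-12 by limma). High Lox mRNA thus stood beside Eln at a trace in the same libraries.

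Of 8 enzymes known to degrade elastin, 6 entered the test. HFHG was higher for 2 and lower for 4 of them (34.0% and 30.8% of all tested genes), and the median of their log2 fold changes was -0.39. The higher ones were Mmp2 (0.36, with 260.3 ± 4.14 FPKM in HFHG and 202 ± 3.92 in LG) and Mmp12 (0.25, with 146 ± 1.98 and 122 ± 3.50 FPKM). The largest falls were those of the cathepsin Ctsk (-1.80, with 98.4 and 344 FPKM), of Mmp9 (-0.57, and -0.31 with a pseudocount of 1, with 0.806 and 1.24 FPKM) and of the cathepsin Ctss (-0.44, with 121 ± 2.02 and 164 ± 3.22 FPKM). Eln was at a trace in every library in which these enzymes were measured.

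Of 8 chains of integrins that bind the RGD tripeptide, a motif of Fbn1 and Fbln5 proteins, 6 entered the test, with 3 higher and 3 lower in HFHG (34.0% and 30.8% of all tested genes) and a median of -0.02. Itgb8 (0.38, and 0.19 with a pseudocount of 1), Itgb5 (0.24) and Itga5 (0.12) were higher, and Itgb3 (-1.05), Itgb1 (-0.25) and Itgav (-0.16) were lower. The call of Itgb8, at 1.02 FPKM in HFHG and 0.767 in LG, was lost under quantile normalization, where its log2 fold change fell to 0.22 (adjusted p = 0.159). It was also lost without HFHG replicate 1 (0.36, adjusted p = 0.0510) or 3 (0.33, adjusted p = 0.0642) or LG replicate 1 (0.32, adjusted p = 0.0617) or 4 (0.32, adjusted p = 0.0558), with a fold change close to that of all libraries. Itgav lost its call when rescaled to the same sum (-0.10, adjusted p = 0.144) and under quantile normalization (-0.11, adjusted p = 0.0870), and Itgb1 lost it under quantile normalization (-0.07, adjusted p = 0.0940).

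**Figure D5:**
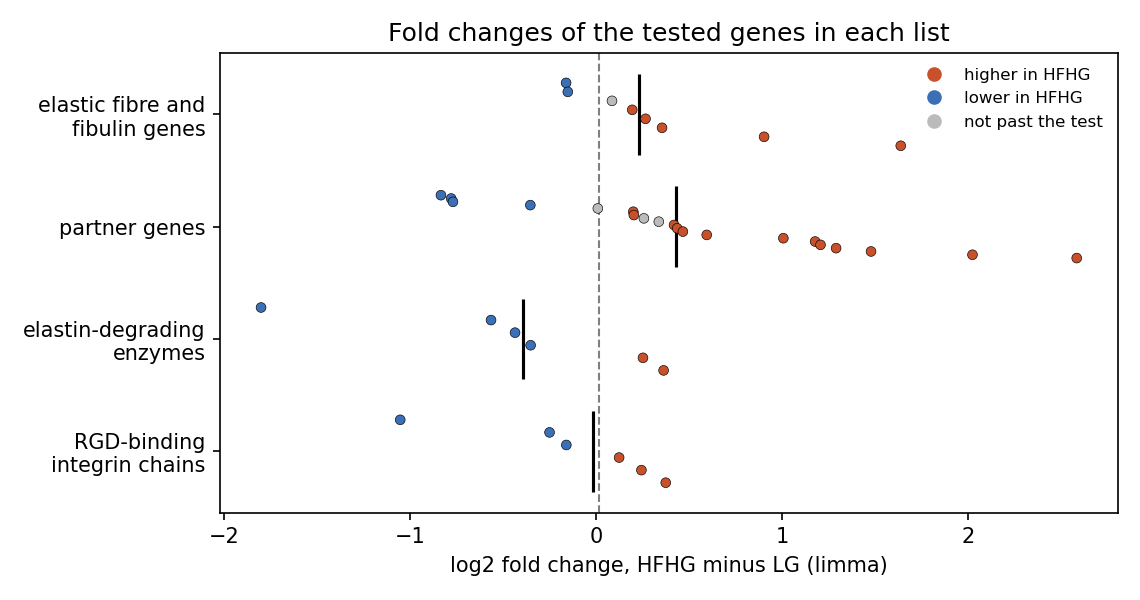
Log2 fold change of the tested genes in each list, HFHG minus LG, with 1 point per gene, coloured by whether it was higher or lower in HFHG at an adjusted p below 0.05 or did not pass; black bars are list medians and the dashed line is the median of all tested genes (0.02). The medians are 0.23 for the 8 elastic fibre and fibulin genes, 0.43 for partner genes, -0.39 for elastin-degrading enzymes and -0.02 for integrin chains. Mfap4 and Hmcn1 reached the filter only through HFHG and had to be higher. No weight rests on the medians of the elastic fibre and fibulin genes and of the partner genes, which include them.

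The label of the cells was checked with markers. All 10 tendon cell markers were tested, and 7 of them were higher and 2 lower in HFHG (34.0% and 30.8% of all tested genes). Most of the larger sum in HFHG came from Col1a1 (529 FPKM in HFHG and 206 in LG), Thbs4 (370 and 168), Tnc (327 and 157) and Col3a1 (229 and 122). Dcn was the most abundant at 605 FPKM in HFHG and 609 in LG (log2 fold change -0.01, but 0.28 under quantile normalization), with Mkx at 6.73 and 8.62. The tendon factors Scx (2.27 and 1.45) and Tnmd (1.10 and 0.614) were low in both media. By limma, Scx (0.61, adjusted p = 0.0138) and Tnmd (0.86, adjusted p = 0.0164) were higher in HFHG, and Mkx was lower (-0.35, adjusted p = 0.000749). The ranges of Scx overlapped (1.53 to 2.88 FPKM in HFHG and 0.983 to 1.76 in LG). Its change was 0.49 without HFHG replicate 2 (limma, adjusted p = 0.047) and 0.45 without LG replicate 4 (adjusted p = 0.0405). Under quantile normalization the change of Scx was 0.48 (adjusted p = 0.0438). The change of Tnmd was 0.52 without LG replicate 1 and 0.40 with a pseudocount of 1. By qPCR, the study reports lower Scx and Tnmd in HFHG medium and no significant change of Mkx. It also reports less TNMD protein in TSCs and Achilles tendons of diabetic mice. For HFHG medium the study reports the same change at the protein level. The culture time behind that qPCR is not given in the sources used here. The reason for the difference from these RNA-seq values was not tested. The summed FPKM of the 10 tendon cell markers was 2117, 2135, 2104 and 2150 in HFHG replicates 1 to 4, against 1327, 1344, 1323 and 1304 in LG replicates 1 to 4. Macrophage markers were present as well. Their summed FPKM was 1762, 1736, 1728 and 1711 in HFHG replicates 1 to 4, against 1875, 1889, 1906 and 1955 in LG replicates 1 to 4, mostly from Lyz2 (1637 and 1765 FPKM). Of 8 tested macrophage markers, 7 were lower in HFHG (30.8% of all tested genes), among them Adgre1 (26.5 against 38.0 FPKM), Cd68 (34.4 against 42.5 FPKM) and Lyz2, which turned to a change of 0.01 under quantile normalization (adjusted p = 0.641). Cd163 was near 0. Macrophages are known to make Mmp12 and Ctss, and the part of these cells in the values of Fbln2, Efemp2 and the other genes was not tested.

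Smooth muscle cells make elastic fibres in vessels, and their markers moved with the media too. All 5 tested smooth muscle markers were higher in HFHG (34.0% of all tested genes), with a summed FPKM of 175, 174, 172 and 167 in HFHG replicates 1 to 4, against 125, 121, 121 and 131 in LG replicates 1 to 4, led by Tagln (84.0 against 69.0) and Acta2 (69.1 against 45.7). Myh11 (0.317 against 0.120 FPKM), Des and Myocd were below 0.5 FPKM in every library, and Tagln and Acta2 are also expressed by activated fibroblasts. The part of such cells in the higher Fbln1, Mfap5 and Efemp1 was not tested. Endothelial markers summed to 1.66 to 1.78 FPKM in HFHG and 1.88 to 2.23 in LG, with Tek the most abundant in HFHG (0.800) and Vwf in LG (1.04), and 5 of 7 below 0.5 FPKM in every library. Skeletal muscle markers summed to 0.643 to 1.67 and 3.44 to 4.21 FPKM, mostly Acta1 (0.904 against 3.38), with 4 of the 5 genes in the table below 0.5 FPKM. Chondrocyte markers summed to 5.36 to 6.64 and 4.75 to 6.15 FPKM, mostly Comp (5.01 against 4.60), with 4 of 6 below 0.5 FPKM. The log2 fold change of Comp was 0.13 (adjusted p = 0.254 by limma), and 0.23 without LG replicate 4 (adjusted p = 0.0178). It fell to 0.07 without LG replicate 2 (adjusted p = 0.569) and to 0.06 under quantile normalization (adjusted p = 0.635). Adipocyte markers summed to 244 to 249 and 171 to 180 FPKM, from Lpl (179 against 148) and Fabp4 (68.3 against 26.6), with Adipoq, Plin1 and Cidec below 0.5 FPKM in every library.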

How the data were processed

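The 8 mouse TSC libraries, 4 in HFHG and 4 in LG, were grouped by their titles. The authors deposited FPKM per gene. HISAT2 2.1.0 and mm10 are named in the submitters' processing notes, and the counting program and annotation are not given in the sources used here. All per-sample columns were used.

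Library totals and whole reads were recovered from the FPKM for 19301 of 19301 genes (100%, relative tolerance 1e-06). Log2(FPKM + 0.1) of the 11710 genes with at least 0.5 FPKM in at least 4 libraries was fitted with limma 3.58.1 in R 4.3.3 (lmFit, eBayes with intensity trend), HFHG minus LG without covariates, with Benjamini-Hochberg adjustment over all tested genes. Recovery and fit were tested on simulated data. Genes below the filter and 5 ratios had exact two-sided permutation tests over 70 arrangements (scipy 1.17.1), which cannot give a p below 0.0286. Intervals of reads are exact at 95%.

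Named were the 10 genes in every library and, from each list, up to 3 called genes with the largest rise and fall, plus markers. The members, lists and tests were chosen with earlier results of these data known. Positions are from GENCODE M21 (GRCm38), and promoters from RefSeq. Proteins were not analysed here. The alternatives were pseudocounts of 1 and 0.01, no filter or 1 FPKM, 3 scalings, the replicate block, robust eBayes, voom on recovered reads (also with at least 10 reads, chosen after seeing the data), each library left out, the scalings also for ratios (chosen after seeing the data) and the threshold of the study's methods.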

Additional observations from a re-analysis of the deposited data

Results flagged for a closer look

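In 78 groups of 4 libraries, the gap between 1 library and the nearest other was compared with the range of the group, a rule by which chance marks about 1 group in 20. It marked 5 groups, 3 of them through LG replicate 4. Fbn1 was 113 FPKM in LG replicate 4, against 128 to 131 in the other LG libraries, and without it the log2 fold change of Fbn1 was 0.04 in place of 0.09. The log2 ratio of Fbln5 to Fbln2 was -3.94 in LG replicate 4, against -4.00 in each of the other LG libraries. Itgb1 was 467 FPKM in LG replicate 4, against 485 to 489 in the others. The log2 ratio of Mfap5 to Mfap4 was 8.70 in HFHG replicate 3, against 8.17 to 8.23 in the other HFHG libraries, where Mfap4 rested on 32 reads. Fn1 was 445 FPKM in HFHG replicate 1, against 479 to 480.0 in the others. The causes of these gaps were not tested.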

How the results depend on the processing

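Fbln1, Fbln5, Efemp1 and Mfap5 were higher in HFHG and past the threshold in every alternative fit. Their log2 fold changes ran from 1.60 to 1.70 for Fbln1, 0.16 to 0.25 for Fbln5, 0.32 to 0.42 for Efemp1 and 0.23 to 0.43 for Mfap5. Mfap4, which most fits admit through HFHG alone, ran from 0.37 to 1.07 and had an adjusted p of 0.00121 without the filter. Under quantile normalization 8 of the genes were called higher and 0 lower, Fbln2 was at 0.18 and Efemp2 at 0.0809, and the markers Dcn (0.28) and Lyz2 (0.0062) turned as well. The cause was not tested. In the other alternatives on FPKM or reads, 4 to 7 of the genes were called higher and 2 lower. On the log2(FPKM + 0.1) scale, the threshold of the study's methods applied to the limma fit gave 624 genes in all, 1 of the genes higher and 0 lower. It asks for a larger fold change. The median log2 fold change of all tested genes was 0.02 on FPKM as deposited, 0.07 with the same sum, -0.02 with median-ratio scaling and -0.02 with quantile normalization.

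With a pseudocount of 1, the ratio difference was -0.0137 for Fbn2 to Fbn1 and -0.0602 for Eln to Fbn1, both turned in sign, 0.35 for Fbln5 to Fbln2 (adjusted p = 0.0714), -0.51 for Efemp2 to Efemp1 (adjusted p = 0.0714) and -0.11 for Mfap5 to Mfap4 (adjusted p = 0.238). Under quantile normalization of the tested genes, chosen after seeing the data, it was 0.0213 for Fbln5 to Fbln2, -0.341 for Efemp2 to Efemp1 and -0.218 for Mfap5 to Mfap4. Over all genes it was 0.195 for Fbn2 to Fbn1, -0.0681 for Eln to Fbn1, -0.291 for Mfap5 to Mfap4 and the same for the other 2. Efemp2 to Efemp1 kept the smallest possible exact p of 0.0286, which cannot pass after adjustment when no other ratio does. Scaling by 1 factor per library ended no call. With 1 library left out, the ratio differences moved by less than 1 SD, from 0.31 to 0.44 for Fbn2 to Fbn1, -0.01 to 0.20 for Eln to Fbn1, 0.35 to 0.37 for Fbln5 to Fbln2, -0.53 to -0.49 for Efemp2 to Efemp1 and -0.76 to -0.57 for Mfap5 to Mfap4. The difference for Eln to Fbn1 thus also turned in sign without HFHG replicate 3 or LG replicate 3.

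Deviations of same-numbered libraries from their group means were hardly correlated (-0.0207, -0.00955, -0.00558 and -0.0736). Whether same-numbered cultures share an animal or a day is not given in the sources used here, and such correlations cannot decide it. With the replicate block, 7342 genes were called in place of 7592, with 5 of the elastic fibre and fibulin genes higher and 2 lower as without it, and the 5 ratio differences kept their values, with an exact p of 0.125 at the smallest that 4 pairs allow. For Eln, Fbn2 and Mfap4 the number of reads limits the precision.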
